A study of Mus musculus with 4 samples.

Results

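The genes described here process uracil in DNA by base excision and by mismatch repair: Ung, Mbd4, Apex1, Apex2, Msh6, Pms2 and Exo1. Every probe set whose single gene symbol in the platform annotation is one of these 7 names was taken, which gave 16 of 45037 probe sets that are not controls. The cells were subclones of 36-65, a mouse hybridoma, which is a fusion of an antibody-producing B cell with a myeloma cell. The labels sort the subclones by the frequency of isotype switching in vitro, low for L25 and L27 and high, there called spontaneous, for H23 and H27. L25 and L27 are here replicates 1 and 2 of the low class, and H23 and H27 those of the high class, with total RNA of each on 1 array. All 4 derive from 1 hybridoma and were grown in the same medium with 10% fetal calf serum. The labels name no treatment, and they do not state whether subclones of a class arose separately. The p-values therefore rest on the spread between these 4 arrays alone.

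In B cells, class switching starts when a deaminase turns cytosine into uracil in the DNA ahead of the heavy chain constant genes. Ung removes the uracil and leaves an abasic site, which the endonucleases Apex1 and Apex2 can cut. The resulting mismatch can instead be bound by Msh6 with its partner protein, after which Pms2, also in a complex, nicks the strand and Exo1 digests it. Mbd4 is a further glycosylase, which acts on uracil or thymine paired with guanine. The same enzymes repair DNA in all dividing cells.

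Of the 16 probe sets, limma called 3 lower and 1 higher in high switching subclones at a Benjamini-Hochberg adjusted p under 0.05. Over all probe sets 2.1% were called lower and 1.5% higher, or 3.59% in both directions. The calls were Ung on its only probe set and Apex1 on 2 of 3, both lower, and Mbd4 on 1 of 3, higher. No probe set of Apex2, Msh6, Pms2 or Exo1 was called. The median log2 difference (high minus low switching) was -0.12 over the 16 probe sets and 0.01 over all probe sets. The classes did not overlap on 5 probe sets that were lower and 4 that were higher, while over all probe sets 22.2% were apart as lower and 25.1% as higher.

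Of the 11 probe sets of these genes whose mean over the arrays was 7 or more (log2), 3 were called, against 7.21% of all probe sets at that level (4.22% lower and 2.98% higher). The classes did not overlap on 6 of these 11 (5 lower and 1 higher). Over all 14489 probe sets at that level they did not overlap on 9196 (5157 lower and 4039 higher), so such gaps were common. All 4 calls ended with a block for the signal of the hybridization controls, which was the higher one in L25 and H27 (adjusted p 0.0929 to 0.116), and when limma tested against a fold of 1.2 (0.128 to 0.192). The 4 differences were the same with the block, and their SEs were 0.098 to 0.131 in place of 0.106 to 0.161, but that fit has fewer residual degrees of freedom.

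**Figure D1:**
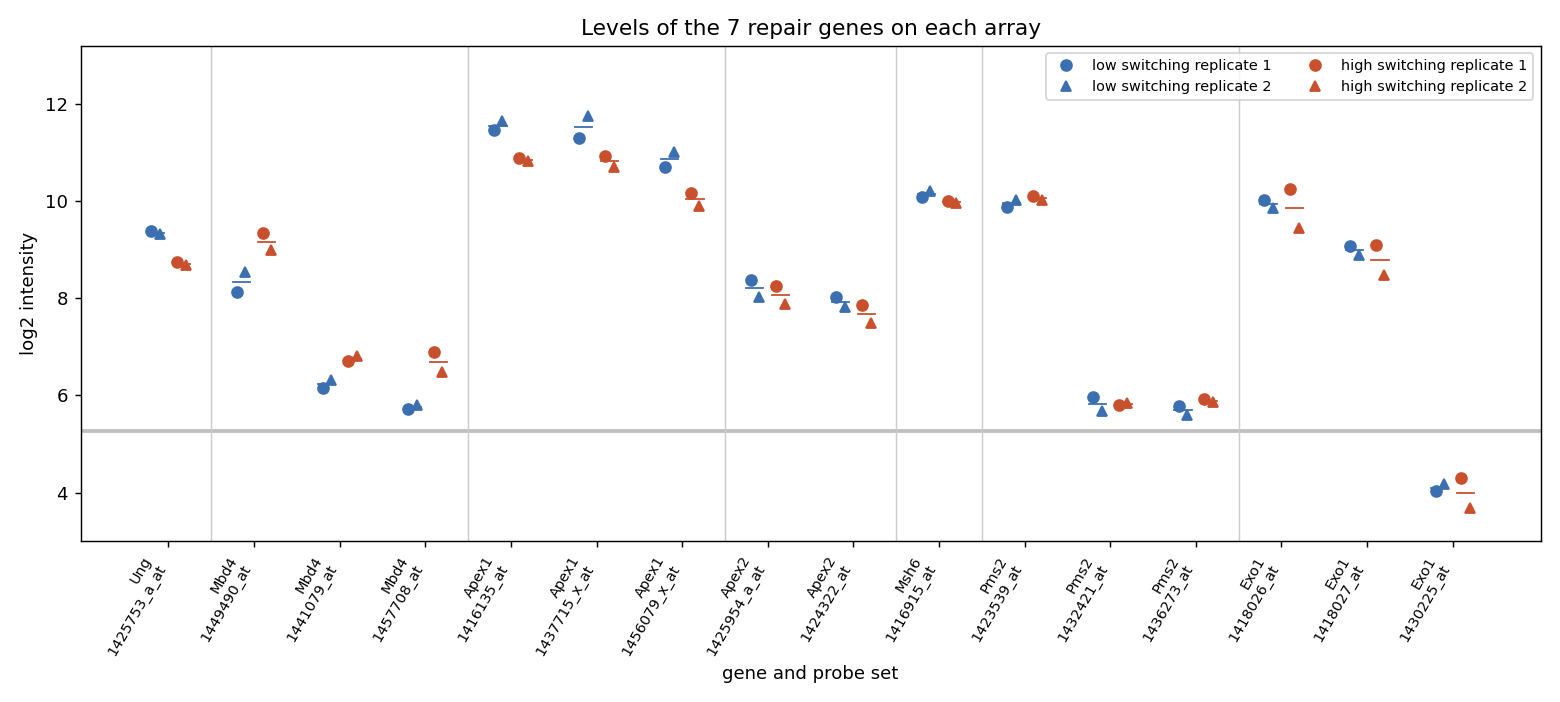
Log2 intensity (vertical axis) of each of the 16 probe sets on the 4 arrays, with low switching in blue, high switching in red, circles for replicate 1, triangles for replicate 2 and short lines for class means. The grey band is the median probe set of the arrays (5.25 to 5.30). Ung and all 3 Apex1 probe sets are lower on both high switching arrays, and all 3 Mbd4 probe sets are higher.

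The DNA beside the start sites is shown for the genes whose levels differed and for Pms2, because it bears on the neighbouring genes described below. RefSeq promoter windows of build GRCm38.p6, which hold 250 bases before and 50 after a start site, matched 5 of the 7 genes. The window of Apex1 also holds the start of Osgep, and that of Pms2 the start of Aimp2, each on the opposite strand, and the bases between each pair lie in no annotated gene. Ung and Mbd4 have no such gap, since their spans overlap those of Alkbh2 (opposite strand) and Ift122, so only the 30 bases before the outermost annotated start are given. Sequences read 5′ to 3′ on the strand of the repair gene, and capitals mark the searched motifs that were found:
Apex1, chr14:50924894-50924948, plus strand: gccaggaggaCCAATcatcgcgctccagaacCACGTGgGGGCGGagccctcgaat
Pms2, chr5:143909840-143909900, plus strand: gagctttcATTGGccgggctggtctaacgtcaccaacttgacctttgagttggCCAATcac
Ung, chr5:114130336-114130365, plus strand: ccacccacccggGGGCGGggcctcagcccc
Mbd4, chr6:115853401-115853430, minus strand: ccggaaaggtgggtgGGGCGGggagtcttg

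The motifs searched on both strands were CCAAT, the GC box GGGCGG, the TATA box TATAAA, the cyclic AMP element TGACGTCA, the Myc-type E-box CACGTG and the E2F forms TTTCCCGC and TTTGGCGC. In the Apex1 stretch, CACGTG and GGGCGG lie 1 base apart. The Apex1 window holds CACGTG at 3 places, and 7.15% of the 32851 RefSeq windows hold it at all. GGGCGG was found in the windows of all 5 matched genes (35.7% of all windows), and CCAAT in all but that of Ung (37.4%). Of the E2F forms, TTTCCCGC was found in the window of Msh6 alone among the 5 (1.07% of all windows). These matches describe letters and not binding.

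Ung encodes the main uracil DNA glycosylase, and its level was lower in both high switching subclones. Probe set 1425753_a_at had log2 intensities of 9.39 and 9.32 in low switching replicates 1 and 2, and of 8.74 and 8.69 in high switching replicates 1 and 2. The classes were apart by 0.58, against 0.07 between the low and 0.05 between the high switching arrays. The class means were 9.35 ± 0.05 (SD, n = 2) and 8.71 ± 0.04, a 1.56-fold lower level with high switching. The log2 difference was -0.64 ± 0.11 (SE), with a 95% interval from -0.90 to -0.38 and an adjusted p of 0.0362. Since names ending in _a_at mark probe sets that match several transcripts of a gene, this value does not separate the nuclear from the mitochondrial form of the enzyme. The call rested on all 4 arrays: with any single array left out, the difference was between -0.68 and -0.60 and the adjusted p between 0.107 and 0.177.

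Apex1 encodes the main abasic site endonuclease, and each of its 3 probe sets was lower in both high switching subclones. On 1416135_at the low switching arrays read 11.46 and 11.65 and the high switching arrays 10.89 and 10.83. On 1456079_x_at they read 10.72 and 11.01 against 10.17 and 9.91. On 1437715_x_at they read 11.29 and 11.75 against 10.93 and 10.71. Both high switching arrays were below both low switching arrays on each probe set, by 0.58, 0.54 and 0.36 in the same order.

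Apex1 fell on 1416135_at by 0.70 ± 0.12 (SE, log2, adjusted p = 0.0369), a 1.62-fold lower level, and on 1456079_x_at by 0.82 ± 0.15 (adjusted p = 0.0473). The third probe set gave a difference of -0.70 ± 0.18 that did not pass (adjusted p = 0.102), with an SD of 0.32 between the low switching arrays. Names ending in _x_at mark probe sets that may also match other transcripts. Both calls ended with any single array left out, with adjusted p-values from 0.107 to 0.142 for 1416135_at and from 0.0822 to 0.162 for 1456079_x_at. The call of 1456079_x_at also ended with log2(value + 16), at an adjusted p of 0.0694.

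Apex2, a relative of Apex1 with weaker endonuclease activity, did not differ between the classes beyond the spread of the arrays. On 1425954_a_at the low switching arrays read 8.38 and 8.03 and the high switching arrays 8.26 and 7.89. On 1424322_at they read 8.03 and 7.83 against 7.85 and 7.48, so the classes overlapped on both. In each class replicate 2 was the lower one on both probe sets. The log2 differences were -0.13 (95% interval -0.57 to 0.31) and -0.26 (-0.65 to 0.13), with adjusted p-values of 0.799 and 0.465. A fall of the size seen in Ung (0.64) lies outside the first interval and inside the second.

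Mbd4 went the other way from Ung and Apex1, and was higher on all 3 probe sets. Probe set 1449490_at read 8.12 and 8.55 in low switching subclones and 9.34 and 9.00 in high switching subclones. On 1457708_at the arrays read 5.72 and 5.80 against 6.90 and 6.48, and 1441079_at read 6.15 and 6.31 against 6.71 and 6.81. No high switching array overlapped a low switching array on any of them, with gaps of 0.45, 0.68 and 0.39.

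Only 1457708_at passed, with a rise of 0.93 ± 0.16 (SE, log2, adjusted p = 0.040), or 1.91-fold. The others had differences of 0.83 ± 0.19 (adjusted p = 0.0751) and 0.53 ± 0.12 (0.0730). The low switching mean of the probe set that passed, 5.76, lies close to the median probe set of the arrays (5.25 to 5.30), so the size of its difference is approximate. Its adjusted p was 0.180 without low switching replicate 1, 0.124 without low switching replicate 2, 0.0935 without high switching replicate 1 and 0.0354 without high switching replicate 2, where the difference was 1.15. With log2(value + 16) in place of log2, it was 0.77 (adjusted p = 0.0714).

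**Figure D2:**
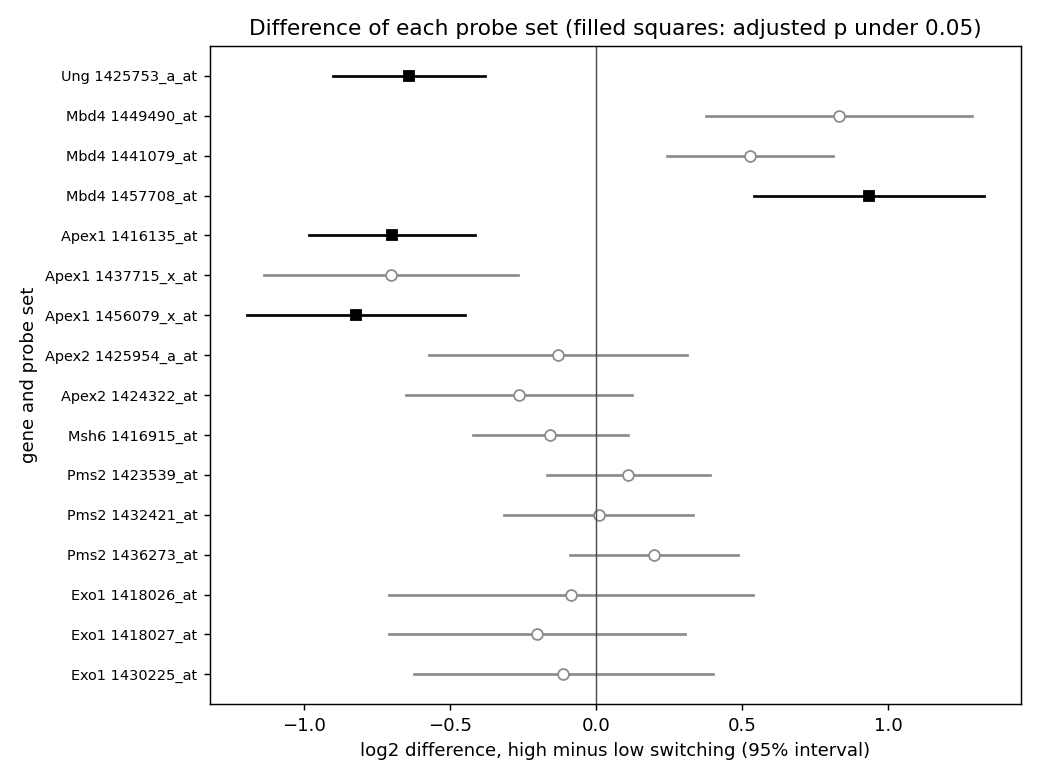
Log2 difference, high minus low switching (horizontal axis), of each of the 16 probe sets with its 95% interval from limma. Filled squares have an adjusted p under 0.05 and open circles do not. The filled squares are Ung (-0.64), Apex1 (-0.70 and -0.82) and Mbd4 (0.93), and the 9 intervals of Apex2, Msh6, Pms2 and Exo1 all hold 0.

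The recognition and nicking proteins of mismatch repair gave small differences. Msh6, which binds the mismatch, read 10.08 and 10.20 in low switching subclones and 10.00 and 9.97 in high switching subclones. The classes were apart by only 0.08, and the difference of -0.16 ± 0.11 (SE) had an adjusted p of 0.537. Pms2, the nicking subunit, read 9.87 and 10.04 against 10.10 and 10.03 on its bright probe set 1423539_at, and the classes overlapped. Its difference was 0.11 (95% interval -0.17 to 0.39), and its 2 dim probe sets, 1436273_at and 1432421_at, gave 0.20 and 0.01. The intervals of the bright probe sets run from -0.42 to 0.11 for Msh6 and from -0.17 to 0.39 for Pms2, and so leave out changes of 0.5 (log2) in either direction.

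Exo1, the exonuclease that widens the nick into a gap, differed between the 2 high switching subclones more than between the classes. On 1418026_at the low switching arrays read 10.02 and 9.87, high switching replicate 1 read 10.26 and high switching replicate 2 read 9.46. On 1418027_at the values were 9.09 and 8.90 against 9.09 and 8.49. Replicate 2 of the high class was thus the lowest array on both, and replicate 1 was at or above the low switching arrays.

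The difference of high switching replicate 2 from replicate 1 was -0.80 on 1418026_at and -0.60 on 1418027_at. Among all probe sets with a mean of at least 7, 0.966% and 3.17% differed by as much between these 2 arrays. The difference between classes was -0.09 ± 0.26 (SE, adjusted p = 0.924) and -0.20 ± 0.21 (0.704). Without high switching replicate 2 the differences were 0.31 and 0.10, so their sign rests on that array. The third probe set, 1430225_at, was dim, with a mean of 4.04 under the median probe set of each array, and had a difference of -0.62 between the same arrays.

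Genes of DNA replication moved with Exo1 between these subclones. All 20 measured genes of a replication list were lower in high switching replicate 2 than in replicate 1, with a median of -0.32, against 56.3% and a median of -0.04 over the 8222 genes with a mean of at least 7. Of 11 mitosis genes 10 were lower, with a median of -0.18. Between the low switching subclones the replication median was -0.08 (17 of 20 lower) and the mitosis median was 0.16 (0 of 11 lower). Ung, which is also induced in dividing cells, differed by -0.05 between the high switching subclones. The part of these differences in the level of Exo1 was not tested.

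**Figure D3:**
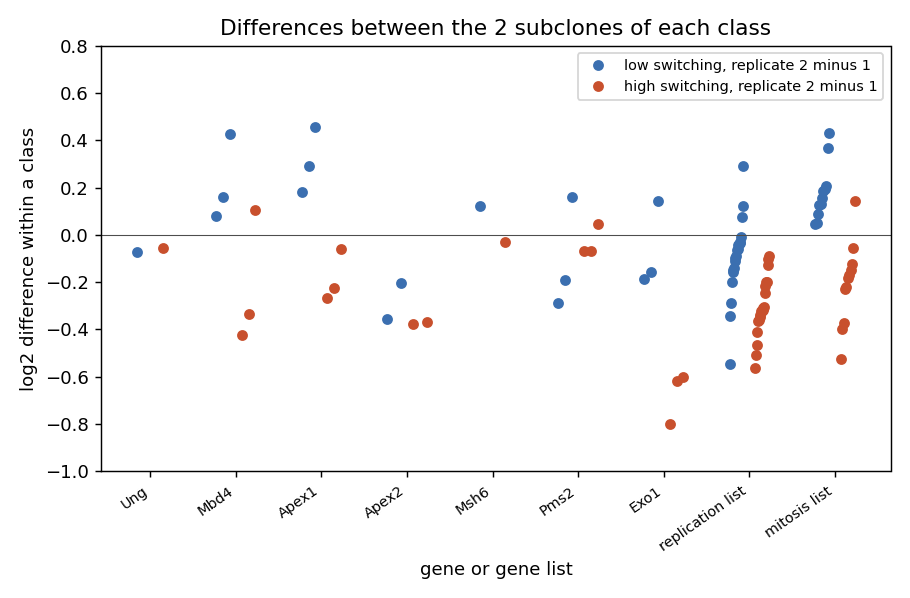
Log2 difference of replicate 2 minus replicate 1 within each class (vertical axis; low switching in blue, high switching in red) for each probe set of the 7 genes and for the genes of the replication and mitosis lists. The 3 red Exo1 points lie between -0.80 and -0.60, and those of Ung, Msh6 and Pms2 lie close to 0.

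The other genes of the 2 pathways were taken from lists, with the probe set of the highest mean standing for each gene. Of 18 measured base excision genes limma called 2 higher and 1 lower (2.04% and 2.78% of all 18193 genes), with a median difference of -0.04 against 0.01 over all genes. Xrcc1, the scaffold that gathers the enzymes at a cut abasic site, read 9.59 and 9.49 in low switching subclones and 8.82 and 8.91 in high switching subclones, a fall of 0.67 ± 0.11 (SE, adjusted p = 0.0352). Hmces, a protein that covers abasic sites in single-stranded DNA, read 9.98 and 9.81 against 11.20 and 10.87, a 2.20-fold rise (1.14 ± 0.15, adjusted p = 0.0195). Tdp1, which removes proteins and blocked ends from DNA, rose by 0.68 ± 0.13 (adjusted p = 0.0464). With any single array left out the calls of Xrcc1 (adjusted p 0.0947 to 0.175) and Tdp1 (0.0827 to 0.214) ended, and that of Hmces held only without high switching replicate 2 (0.0295). With the median of the 40 nearest genes subtracted, as described for Ung below, Tdp1 did not pass (0.53, adjusted p = 0.0541), nor with centred neighbours (0.40, 0.107). Xrcc1 passed in the first of these settings (-0.62, 0.0447) but not in the second (-0.58, 0.0514), and Hmces passed in both.

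The alternative uracil glycosylase Smug1 had a difference of -0.39 ± 0.11 (SE), with 7.51 and 7.40 against 7.04 and 7.08, and an adjusted p of 0.121. Polb, the polymerase that fills the gap of 1 base, had a difference of 0.52 (adjusted p = 0.0874), and the ligase gene Lig3 one of -0.41 (0.238). The nick sensor Parp1 had a difference of -0.08 and the flap endonuclease Fen1 one of -0.32, and neither passed. The glycosylase Neil1 (0.80, adjusted p = 0.189) and Aplf (0.56, 0.0808) had the largest differences that did not pass.

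Of 17 other genes that serve mismatch repair, 2 were called lower and 0 higher, and the median difference was -0.35. Both were subunits of the clamp loader, which places the sliding clamp on DNA: Rfc3 fell by 1.07 ± 0.18 (SE, adjusted p = 0.0353) and Rfc1 by 0.76 ± 0.11 (0.0278). Rfc3 read 9.59 and 9.43 against 8.67 and 8.20, and both of its probe sets passed, as did 2 of 3 for Rfc1. The call of Rfc1 ended with any single array left out (adjusted p 0.0788 to 0.115), and that of Rfc3 held only without high switching replicate 1 (0.0319). With neighbours subtracted the difference of Rfc1 was -0.34 (adjusted p = 0.163), or -0.32 (0.169) with centred neighbours, so its call ended in both, while Rfc3 passed in both (-0.88 and -0.87). Pcna, the clamp itself, had a difference of -0.49 (adjusted p = 0.159). The Msh6 relative Msh3 had -0.45 (0.112), and the Pms2 relatives Pms1 and Mlh3 had -0.12 and 0.01. Pold1, of the replicative polymerase, and Rfc5 had -0.53 and -0.52 and did not pass.

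Polymerases that copy past damage did not pass. Of 12 genes of gap filling and translesion synthesis, limma called 0, and 4 had an unadjusted p under 0.05, as did 22.9% of all genes and 37.1% of those with a mean of at least 7. Polh, the polymerase that makes mutations at A and T in antibody genes, had a difference of -0.12, and Rev1, which inserts C opposite abasic sites, one of -0.26. The largest were Ube2a (0.61, adjusted p = 0.0717) and Usp1 (-0.51, 0.0798), which attach and remove ubiquitin. Of 7 genes that set the supply of dUTP and thymidine nucleotides, 1 fell: Dctd, the dCMP deaminase (-0.61 ± 0.10, SE, adjusted p = 0.0384), whose call ended with any single array left out (0.123 to 0.157) and held with neighbours subtracted in both ways. Over all genes 2.78% were called lower. Dut, which destroys dUTP, had a difference of 0.10 (adjusted p = 0.826). Tk1 (-0.77, 0.156) and Shmt1 (-0.52, 0.160) did not pass.

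Of the 20 replication genes limma called 0, with a median difference of -0.31, against -0.05 over all genes with a mean of at least 7. Of the 20, 9 had an unadjusted p under 0.05, against 37.1% of all genes at that level. The largest differences were those of Mcm7 (-0.56, adjusted p = 0.108) and Uhrf1 (-0.49, 0.145). The summed intensity of the list was 63719 and 59703 on the low and 56839 and 46076 on the high switching arrays. Of the 11 mitosis genes it also called 0, with a median of -0.06 and 1 at an unadjusted p under 0.05, and the largest differences were 0.41 for Ccna2 and -0.26 for Mki67. The replication sum was thus lower on both high switching arrays, as were Ung and Apex1, and its part in their differences was not tested.

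**Figure D4:**
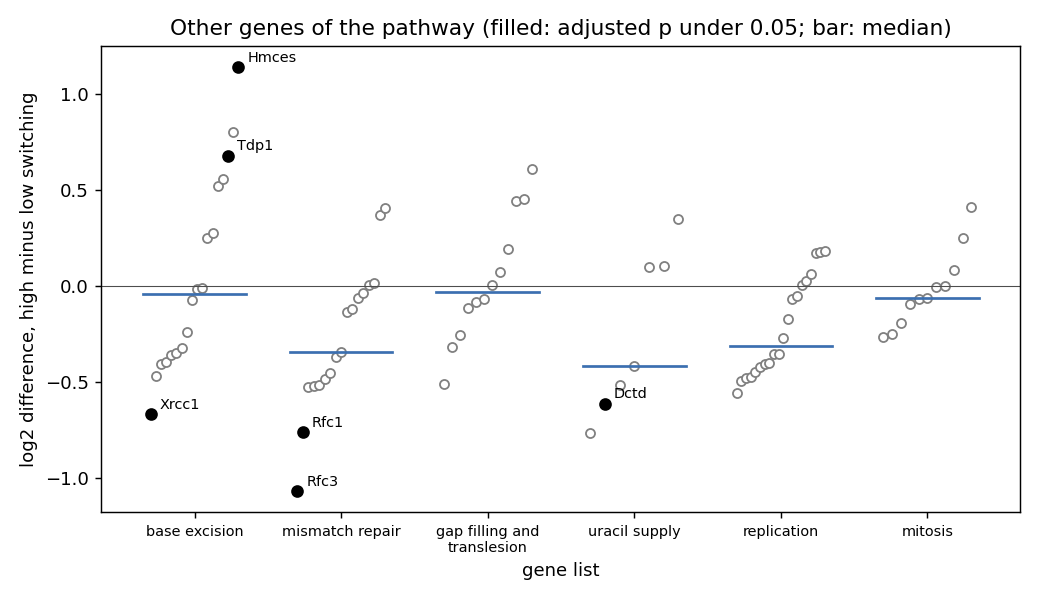
Log2 difference, high minus low switching (vertical axis), of each gene of 6 lists, with filled points for an adjusted p under 0.05 and a bar at the median of each list. Hmces and Tdp1 lie above 0 and Xrcc1, Rfc1, Rfc3 and Dctd below it among the filled points, and no gene of the translesion, replication or mitosis list is filled.

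Ung lies on chromosome 5, where genes were lower as a whole in high switching subclones. Of 535 genes on that chromosome with a mean of at least 7, 54 were called lower and 4 higher, and the median difference was -0.31. Of all 8222 genes at that level, 362 were called lower and 266 higher, with a median of -0.05. Of the 40 genes at that level nearest to Ung in the RefSeq gene order, 33 had a negative difference and 6 were called lower, with a median of -0.19. Alkbh2, a repair enzyme for alkylated bases whose span overlaps that of Ung, read 9.48 and 9.39 in low switching subclones and 8.83 and 8.65 in high switching subclones. Its fall of 0.69 ± 0.12 (SE, adjusted p = 0.0383) was close in size to that of Ung, and its call also ended with any single array left out (0.0814 to 0.182). With neighbours subtracted it also ended, at -0.23 (adjusted p = 0.350), or -0.46 (0.0762) with centred neighbours. Acacb, the next measured gene on the other side, had a difference of 0.31 (adjusted p = 0.259). Of the 40 genes, 5 had a more negative difference than Ung, among them Alkbh2, Selplg (-0.92) and Acads (-1.25).

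With the median level of these neighbours subtracted on each array, the difference of Ung was -0.20 (adjusted p = 0.433). That median level differed by -0.44 between the classes, a larger shift than the median of the neighbours' own differences (-0.19). The median levels differed by -0.09 around Apex1, 0.32 around Mbd4 and -0.31 around Pms2. With each neighbour first centred on its own mean, an alternative chosen after seeing the data, the difference of Ung was -0.43 (0.0873). The call of Ung thus ended in both settings. Pms2 lies on the same chromosome: 34 of its 40 neighbours had a negative difference (median -0.24), and 2 had a more positive one than Pms2. With neighbours subtracted, Pms2 on 1423539_at had a difference of 0.42 (adjusted p = 0.112), or 0.35 (0.141) with centred neighbours, so a difference of Pms2 from its neighbours did not pass. Aimp2 lies on the opposite strand, with 61 bases between its annotated span and that of Pms2. It read 12.15 and 12.11 against 11.95 and 11.81 (-0.25, adjusted p = 0.299). Ccz1, on the other side of Pms2, had a difference of -0.36 (0.179).

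Apex1 stood apart from its neighbourhood on chromosome 14 in the difference between the classes. Within the low switching class it did not: its 40 neighbours, except Arhgef40, were higher in replicate 2 than in replicate 1, as was each Apex1 probe set. The part of this shift in the levels of Apex1 was not tested. Of its 40 neighbours 17 had a negative difference, 0 were called by limma, and the median was 0.04. The neighbour with a more negative difference than Apex1 was Osgep, a tRNA-modifying enzyme whose start lies 55 bases away on the opposite strand. Osgep read 10.32 and 10.95 in low switching subclones and 9.88 and 9.88 in high switching subclones, a difference of -0.75 ± 0.21 (SE) that did not pass (adjusted p = 0.122). Its other probe sets were dim, with means below the median probe set, and gave 0.26 and 0.00. Pip4p1, on the other side, had a difference of -0.16 (adjusted p = 0.742). With the neighbours subtracted, 1416135_at gave -0.61 (adjusted p = 0.0419), and -0.71 (0.0258) with centred neighbours, so the call of Apex1 held in both.

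Mbd4 lies on chromosome 6 among genes that were mostly higher. Of its 40 neighbours 35 had a positive difference, with a median of 0.28, and 1 had a more positive difference than Mbd4 on 1449490_at. Ift122, a transport gene of cilia whose span overlaps that of Mbd4, read 7.62 and 7.78 against 8.01 and 7.60, with a difference of 0.11 (adjusted p = 0.814). Efcab12, on the other side, was below the median probe set with a difference of -0.07. The nearest gene on that side with a mean of at least 7 was Mkrn2, which rose by 0.72 (adjusted p = 0.0378) and was chosen after its value was seen. Its call ended with any single array left out (adjusted p 0.081 to 0.181) and with neighbours subtracted (0.39, adjusted p = 0.122, or 0.46, 0.0853, with centred neighbours). With neighbours subtracted, Mbd4 on 1457708_at had a difference of 0.62 (adjusted p = 0.0339), or 0.68 (0.0271) with centred neighbours, so its call held in both although the value was smaller. The other probe sets did not pass: 1449490_at had 0.52 (0.0901) or 0.58 (0.0817) in the same order, and 1441079_at had 0.21 (0.443) or 0.28 (0.299).

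The 40 neighbours of Exo1 (median 0.02) and of Apex2 (-0.03) showed no shift of that size between the classes. Between the high switching subclones, the 20 neighbours before Exo1 were also lower in replicate 2, except Slamf9 and Dedd. The 20 after it went both ways. The part of the neighbourhood in the level of Exo1 was not tested. Msh6 had 25 neighbours with a mean of at least 7. Their median was -0.38, and the difference of Msh6 turned to 0.20 (adjusted p = 0.396) when they were subtracted. Of the genes beside them, Tmem29 (-0.15) and Alas2 (0.14) for Apex2, Kcnk12 (0.10) and Fbxo11 (-0.16) for Msh6, and Wdr64 (0.02) and Becn2 (0.06) for Exo1 did not pass. Alas2, Wdr64 and Becn2 were below the median probe set and Kcnk12 was near or below it, so their small differences say little.

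**Figure D5:**
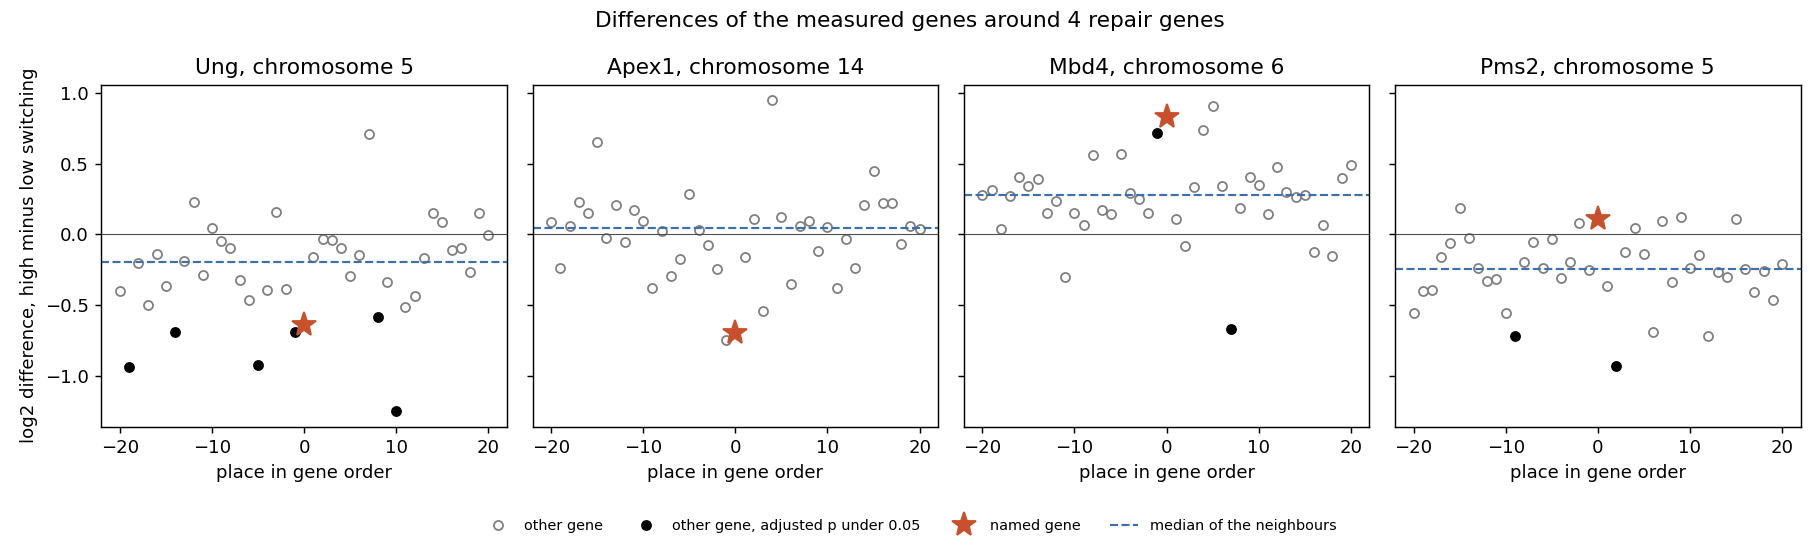
Log2 difference, high minus low switching (vertical axis), of the 20 nearest genes on each side whose mean was 7 or more (log2), by place in gene order (horizontal axis), around Ung, Apex1, Mbd4 and Pms2 (stars). Filled points have an adjusted p under 0.05, and the dashed line is the median of the neighbours: -0.19 for Ung, 0.04 for Apex1, 0.28 for Mbd4 and -0.24 for Pms2.

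Other genes followed these patterns closely over the 4 arrays. Likeness was measured as the root mean square distance between log2 values, each centred on its own mean, among 8215 genes with a mean of at least 7. The 3 genes closest to Ung were Eapp (distance 0.017), Bccip (0.018) and Zfp944 (0.018), and those closest to Apex1 were Saal1 (0.013), Prkd3 (0.026) and Dhx35 (0.026). For Mbd4 they were Cbr3, Scoc and Cers4 (0.057 to 0.060), and for Exo1 they were Aldh4a1, Dtnbp1 and Cyb561d2 (0.048 to 0.062). With 4 arrays and so many genes, small distances are easily found, and they describe these arrays only. Apex2, Msh6 and Pms2 spanned less than 0.5 over the arrays and were not searched.

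Of the marker lists, that of plasma cells was the brightest, with a median level of 12.64, followed by that of mature B cells with 8.41. Of 7 plasma cell markers all lay above the median probe set, with Jchain between 14.35 and 14.49, and 2 fell, Xbp1 and Tnfrsf17. Of 6 mature B cell markers, Pax5, Cd79a and Cd22 were near or below the median probe set, while Ms4a1, Cd79b and Blnk were far above it (means over each class of 11.06 to 13.93), and Cd79b rose by 0.77 (adjusted p = 0.0238). T cell, myeloid, erythroid and fibroblast lists had medians between 5.20 and 6.06, and of their 17 measured genes Itgam fell and Lum rose. Of all 18193 genes, 2.78% were called lower and 2.04% higher. Lum read 4.38 and 4.26 in low switching subclones, below the median probe set, and 5.77 and 5.28 in high switching subclones, so the size of its rise is approximate. All 5 measured T cell markers also lay above the median probe set, so that position alone does not mark a cell type. The brightest genes of these lists were Itgam, with 8.14 and 8.14 against 6.55 and 6.97, and Cd3g, with 7.50 and 7.79 against 7.30 and 6.92. Among germinal centre markers Bcl6 (1.44) and S1pr2 (2.48) rose and Gcsam, Mybl1 and Rgs13 did not pass. Bcl6 read 5.60 and 5.79 in low switching subclones, close to the median probe set, so the size of its rise is approximate. S1pr2 read 7.68 and 8.96 in the low switching subclones, which thus differed widely. Gcsam and Rgs13 lay below the median probe set and Mybl1 close to it, so that they did not pass says little. With single arrays left out, Bcl6 kept its call each time and those of Xbp1, Tnfrsf17 and Cd79b ended each time. With neighbours subtracted these 3 also did not pass: Xbp1 had -0.39 (adjusted p = 0.216), Tnfrsf17 -0.27 (0.311) and Cd79b 0.58 (0.0531), and with centred neighbours they had -0.64 (0.0774), -0.47 (0.0895) and 0.59 (0.0536). The call of S1pr2 ended without either high switching array (adjusted p 0.0841 and 0.104), that of Itgam without either low switching array (0.0823 and 0.0652), and that of Lum held only without high switching replicate 2 (0.0199). The median intensity of the arrays was between 38.1 and 39.3. Precision is limited by there being 2 arrays in each class. In bulk RNA, fewer cells with a transcript and less transcript in each cell cannot be told apart.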

How the data were processed

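RNA labelled with biotin was hybridized to expression arrays, 1 for each of the 4 subclones. The authors deposited linear intensities, normalized between arrays with RMA (robust multi-array average, version not stated), per the submitters' processing notes. RMA shrinks differences of dim probe sets. Log2 was taken with no pseudocount. After 64 controls were removed, the 45037 other probe sets were tested by limma 3.58.1 in R 4.3.3 (lmFit and eBayes, two-sided, no covariate or filter), and p-values were adjusted over all of them by the Benjamini-Hochberg method at 0.05. Errors of differences are moderated SEs. The steps were tested on simulated data.

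Symbols came from the platform annotation of 2016. For lists and gene order, the probe set of the highest mean represented each of 18193 genes, of which 18030 were placed by RefSeq (GRCm38.p6). The authors' build is unknown here, so only printed sequences carry coordinates. The members, lists and alternatives were chosen with earlier results of these data known. Named genes are the members, their nearest measured neighbours, the 3 genes most like each, and from each pathway list a fixed set, all that passed and the 2 largest differences that did not; cell type markers fall outside this rule and were named after their values were seen. Some genes of these pathways are not analysed here. By exact permutation, 2 arrays against 2 give a two-sided p of 0.333 at best. Figures used matplotlib 3.10.9.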

Additional observations from a re-analysis of the deposited data

How the results depend on the processing

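Of 16 probe sets, 3 were called lower and 1 higher; over all 45037 probe sets these counts were 944 and 674. Those of the members were 0 and 0 with limma treat against a fold of 1.2 and with a block for high or low hybridization control signal, where the counts over all probe sets were 304 and 191 with treat and 94 and 58 with the block. With log2(value + 16) 0 members were called higher, with 1 probe set per gene 0 higher, and without probe sets named _x_at, _s_at or _a_at 1 lower. With 1 array left out, 0 members were called lower and 0 to 1 higher, and over all probe sets 196 to 329 lower and 112 to 253 higher. A count of 0 members says little there, since so few probe sets pass at all. No probe set that was called changed its direction in any setting. Reversals were seen in probe sets that were not called: Apex2 1425954_a_at (-0.32 to 0.059 with 1 array left out, positive without low switching replicate 1 or high switching replicate 2), Exo1 1418026_at (-0.49 to 0.31), 1418027_at (-0.50 to 0.10) and 1430225_at (-0.42 to 0.20), each positive without high switching replicate 2, Msh6 (0.20 with neighbours subtracted, 0.17 with centred neighbours) and Pms2 1432421_at (-0.0143 with quantile normalization once more, -0.0128 with arrays centred on their median, -0.13 to 0.15 with 1 array left out, negative without low or high switching replicate 2). A variance trend, with or without robust estimation, and filters on dim probe sets moved no count of the members by over 1.5 times. With 1 probe set per gene, Mbd4 was represented by 1449490_at, so its called probe set 1457708_at was left out. Removing the named suffixes left out the called probe sets 1425753_a_at of Ung and 1456079_x_at of Apex1. For the remaining settings the cause was not tested. Dim probe sets limit Mbd4, Pms2 and Exo1. No paired analysis was possible because the labels give subclone names and no replicate numbers shared between the classes.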
